A study of Homo sapiens with 12 samples.

Results

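The clustered protocadherins are cell-surface adhesion proteins encoded by the alpha, beta and gamma gene clusters on human chromosome 5. Their members were taken by name from the gene table of an RNA sequencing study of Ewing sarcoma cells, as every gene whose symbol is that of a clustered alpha, beta or gamma protocadherin, a rule that uses no measured value. The table held 42 such genes among 20771, with 15 in the alpha, 10 in the beta and 17 in the gamma cluster. GENCODE release 44 annotates 53 protein-coding genes in the clusters (15 alpha, 16 beta and 22 gamma), of which 11 were not analysed here. Of the 42 members, 28 had enough reads to be tested (9 alpha, 8 beta and 11 gamma), among 16515 genes tested in all. The other 14 were left out by the filter on low counts and are described by their counts.

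The study sequenced polyA RNA of EW8 and TC71, 2 Ewing sarcoma cell lines. In both, the endogenous RRM1 gene, which encodes the catalytic subunit of ribonucleotide reductase, had been knocked out with CRISPR/Cas9 and replaced by a codon-optimised RRM1 transgene that is expressed while doxycycline is present (named EW8-RRM1-KO and, for the other line, TC71-RRM1-KO). Cells of the 0 h groups grew with doxycycline, and cells of the 48 h groups had been without it for 48 h, so the knockout and the transgene were common to the groups. Each of the 4 groups had 3 libraries. Each line was a clone, which means that line and clone cannot be told apart, and nothing in the labels states that the 3 libraries came from separate cultures, so the tests measure the spread between these libraries. The samples are bulk RNA, in which fewer cells with a transcript and less of it per cell cannot be told apart.

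Each member of the alpha and gamma clusters has a large variable exon of its own, with its own promoter, that is spliced to a set of constant exons at the end of the cluster. The variable exon encodes the cadherin repeats and the membrane span, and the constant exons encode a common cytoplasmic tail. The beta genes have no constant exons. Neurons express a few members per cell, chosen largely through the promoters by CTCF, cohesin and DNA methylation, while the C-type members (PCDHAC1, PCDHAC2, PCDHGC3, PCDHGC4 and PCDHGC5), which lie at the ends of their clusters, are not chosen in that way. In adhesion, like isoforms bind each other across cells, which lets neurites of the same neuron recognise and avoid each other. In tumours the clusters are known for silencing by DNA methylation over long stretches.

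The constant exons matter here because a read that falls in one belongs to no particular member. In the annotation on hg38, 3 stretches of exon are common to all 15 alpha genes: 59 bases at chr5:140978949-140979007, 89 bases at chr5:140982475-140982563 and 2721 bases at chr5:141009627-141012347. The 22 gamma genes share 59 bases at chr5:141494807-141494865, 89 bases at chr5:141505393-141505481 and 2029 bases at chr5:141510947-141512975. The 59-base exons of both clusters are coding throughout, and their sequences are given from the reference, on the + strand and with no part marked, to show the sequence that cannot tell members apart:
alpha constant exon: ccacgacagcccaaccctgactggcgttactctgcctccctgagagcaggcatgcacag
gamma constant exon: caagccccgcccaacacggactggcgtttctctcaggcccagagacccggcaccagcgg

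Exon bases shared with another gene on the same strand made up 21.4% (PCDHA4) to 56.6% (PCDHA2) of the annotated exon length of the alpha members, 27.5% (PCDHGA6) to 64.4% (PCDHGB4) of the gamma members, and 0% to 9.54% (PCDHB15) of the beta members. Reads of the constant exons had not been credited to every gene, since PCDHGB7 had 0 counts in all 3 EW8 libraries of 48 h while PCDHGC3, of the same cluster, had 706, 701 and 735 counts there. The tool that made the counts and its strand setting were not given in the sources used here. Levels of different members were therefore compared as CPM (counts scaled to library size, here with TMM factors) per kb of own exon, that is of exon bases that no other gene on the strand shares. Near-identical stretches remain within the own exons of some members. Of the 100-base windows of PCDHB8, 25.5% occur more than once in the region. So do 24.7% of those of PCDHB10, 17.96% of PCDHA7, 16.7% of PCDHGB4 and 15.1% of PCDHB13, and the counts of these members are less certain. For PCDHB2 the share was 11.5%, and it was lower for every other member. Every window of PCDHGC3, PCDHAC1, PCDHAC2, PCDHA4, PCDHGA7 and PCDHGB3 was found once. Own exons of 14 members, among them PCDHB2 and PCDHB5, overlap an exon of a gene on the other strand.

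Most members also share a short sequence upstream of their own exons. The conserved sequence element of clustered protocadherin promoters has the core CGCT, and it was searched on the gene's strand in the 100 bases before the transcript starts of the RefSeq promoter table (GRCh38.p14), in which 37 of the 42 members were matched. CGCT was present in 34 of the 37 (91.9%), against 32.2% of 27305 genes with a promoter in the table. On the other strand it was present in 9 of 37 (24.3%), against 32.4% of all genes. These are matches of letters and say nothing of binding. For 9 members that recur in the results, 100 bases are shown with every CGCT in capitals, taken from the + strand of GRCh38.p14. These stretches end just before the gene's start in GENCODE, which for PCDHGC3, PCDHA4, PCDHA6, PCDHB2, PCDHB12 and PCDHGB2 lies upstream of the RefSeq start used for the counts above, so the matches shown can differ from those counted. PCDHGB2 holds a CGCT here and was among the 3 members without one in the RefSeq window, with PCDHA9 and PCDHB8. They are PCDHGC3 (chr5:141475847-141475946), PCDHAC1 (chr5:140926199-140926298), PCDHA4 (chr5:140806937-140807036), PCDHA6 (chr5:140827858-140827957), PCDHB2 (chr5:141094506-141094605), PCDHB5 (chr5:141135106-141135205), PCDHB10 (chr5:141192253-141192352), PCDHB12 (chr5:141208597-141208696) and PCDHGB2 (chr5:141359894-141359993):
PCDHGC3: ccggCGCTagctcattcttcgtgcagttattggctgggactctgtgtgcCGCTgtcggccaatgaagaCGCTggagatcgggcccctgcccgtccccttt
PCDHAC1: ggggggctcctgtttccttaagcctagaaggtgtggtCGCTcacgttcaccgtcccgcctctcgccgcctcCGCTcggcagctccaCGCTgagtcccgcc
PCDHA4: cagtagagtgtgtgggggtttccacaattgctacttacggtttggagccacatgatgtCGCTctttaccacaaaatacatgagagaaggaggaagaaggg
PCDHA6: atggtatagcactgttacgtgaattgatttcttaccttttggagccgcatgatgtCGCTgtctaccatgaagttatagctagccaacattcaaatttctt
PCDHB2: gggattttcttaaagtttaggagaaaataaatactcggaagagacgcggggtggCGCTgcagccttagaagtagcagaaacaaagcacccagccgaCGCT
PCDHB5: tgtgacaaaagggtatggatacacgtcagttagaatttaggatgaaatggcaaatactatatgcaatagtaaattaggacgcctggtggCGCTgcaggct
PCDHB10: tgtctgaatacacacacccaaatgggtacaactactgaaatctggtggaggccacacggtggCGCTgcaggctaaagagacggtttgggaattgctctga
PCDHB12: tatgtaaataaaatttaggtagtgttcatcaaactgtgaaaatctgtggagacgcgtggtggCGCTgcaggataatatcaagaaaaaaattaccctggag
PCDHGB2: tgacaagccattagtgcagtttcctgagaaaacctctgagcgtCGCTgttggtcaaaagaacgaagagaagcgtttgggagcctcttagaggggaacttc

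PCDHGC3 and PCDHAC1, both C-type members, each hold 3 matches in the stretch shown. PCDHB2 holds 2, and each of the others holds 1.

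Library totals ran from 18468485 to 35698991 counts, and the 42 members took 0.00742% to 0.0131% of them, or 1450 to 4360 counts per library, so most members rest on few reads. All 11 genes on a list of Ewing sarcoma markers, which took in EWSR1 and KDSR, were present. Mean CPM was between 244 and 334 for CD99 and between 8.33 and 16.4 for NKX2-2. Some differed at 48 h in EW8, as BCL11B did (mean 86.5 CPM at 0 h and 40.1 at 48 h) and NR0B1 (78.9 and 156). PTPRC, the leukocyte marker, had at most 5 counts in any library. The counts on RRM1 were higher in the libraries labelled 48 h than in those labelled 0 h, at a mean of 70.1 against 9.51 CPM in EW8 and 25.4 against 16.2 CPM in TC71. Since the transgene is codon-optimised, this row does not check its loss.

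At the level of the whole family, transcripts were fewer at 48 h in EW8. The summed level of the 42 members was 38.2, 41.7 and 39.8 CPM per kb of own exon in the EW8 libraries of 0 h and 22.96, 22.1 and 21.9 in those of 48 h. In TC71 it was 26.9, 25.2 and 25.4 at 0 h and 21.6, 21.7 and 22.3 at 48 h. The 0 h libraries were higher than the 48 h libraries in both lines with no overlap, and at 48 h the ranges of the lines (21.9 to 22.96 and 21.6 to 22.3) overlapped. No test was made of these sums.

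PCDHGC3, which is known to bind Axin1 and to restrain Wnt signalling, was the largest part of that sum in every library. Its share of the summed level was 55.6% ± 2.29 (SD, n = 3) in EW8 at 0 h, 49.8% ± 0.797 in EW8 at 48 h, 61.0% ± 1.84 in TC71 at 0 h and 64.2% ± 0.947 in TC71 at 48 h. The gamma cluster as a whole held 65.3% to 69.6% of the summed level in the 4 groups. The alpha cluster held 14.9% ± 1.23 in EW8 at 0 h and 21.9% ± 0.666 at 48 h, against 17.4% ± 1.26 and 19.1% ± 0.307 in TC71. The beta cluster held 16.0% ± 0.817 and 12.8% ± 1.29 in EW8 and 14.1% ± 1.63 and 11.3% ± 0.767 in TC71. The alpha sum itself in EW8 went from 5.94 ± 0.260 to 4.90 ± 0.194 CPM per kb, and the beta sum from 6.37 ± 0.276 to 2.85 ± 0.303. These sums are scaled to library size and are not amounts per cell.

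**Figure D1:**
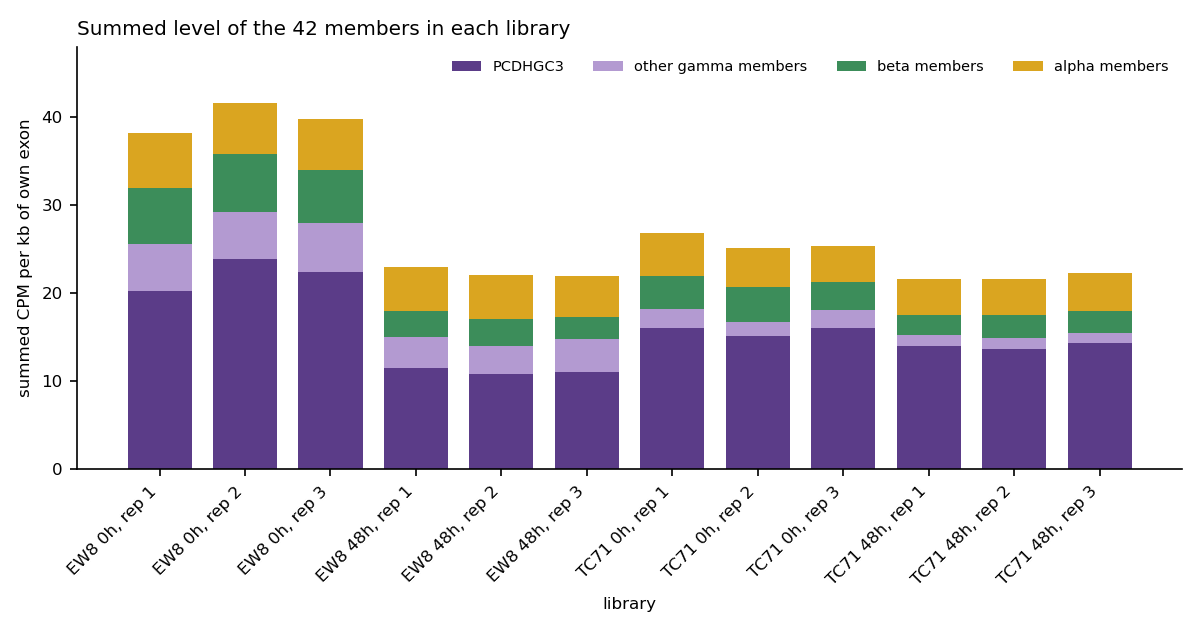
Summed level of the 42 clustered protocadherins in each of the 12 libraries, in CPM per kb of own exon, divided into PCDHGC3, the other gamma members, the beta members and the alpha members. The EW8 libraries of 0 h stand at 38.2 to 41.7, above the other 9 libraries, which lie between 21.6 and 26.9.

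More members were expressed in EW8 than in TC71 by a fixed minimum of counts, without a test. A member was counted as expressed in a group if each of its 3 libraries had at least 10 counts. This held for 21 members in EW8 at 0 h (7 alpha, 8 beta and 6 gamma), 19 in EW8 at 48 h (9, 6 and 4), 17 in TC71 at 0 h (7, 6 and 4) and 15 in TC71 at 48 h (8, 4 and 3). Expressed in all 4 groups were 12 members, namely PCDHA2, PCDHA3, PCDHA4, PCDHA6, PCDHA11, PCDHAC1, PCDHAC2, PCDHB5, PCDHB11, PCDHB14, PCDHGB2 and PCDHGC3. At 0 h all 17 members expressed in TC71 were also expressed in EW8, and PCDHB10, PCDHB15, PCDHGA1 and PCDHGA6 reached the minimum in EW8 alone. In no group did 18 members reach it. At or under 3 counts in every library of a group, a floor under which a level was not taken as measured, were 2 members in EW8 at 0 h, 4 in EW8 at 48 h, 7 in TC71 at 0 h and 9 in TC71 at 48 h. With 3 counts in each library as the minimum instead, 38, 29, 27 and 26 members were expressed in the 4 groups in the same order.

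In the gamma cluster PCDHGC3 stood far above its neighbours by its assigned counts. Whether reads of the constant gamma exons were credited to it, which would raise its level and share, was not tested. With each member's level taken per kb of all its exon bases, constant exons included, the PCDHGC3 share was 47.4% to 61.2% in the 4 groups. This setting lengthens every alpha and gamma member and not PCDHGC3 alone. It therefore sets no lower bound on the share if such reads went to PCDHGC3 only. It had 1506, 1359 and 2389 counts in EW8 at 0 h, 706, 701 and 735 at 48 h, 1403, 1006 and 1262 in TC71 at 0 h, and 1193, 1192 and 1515 at 48 h. Its level was 22.2 ± 1.83 CPM per kb of own exon in EW8 at 0 h and 15.7 ± 0.515 in TC71 at 0 h (n = 3 each). The C-type genes beside it were barely detected. PCDHGC4, which neurons need for survival in the mouse, had 7, 4 and 8 counts in EW8 at 0 h, 0, 3 and 4 at 48 h, 8, 2 and 8 in TC71 at 0 h, and 5, 4 and 6 at 48 h. PCDHGC5 had 3, 12 and 10 counts in EW8 at 0 h, 2, 6 and 4 at 48 h, 5, 5 and 5 in TC71 at 0 h, and 7, 7 and 3 at 48 h. Neither gene was tested, and for both the groups overlapped or lay within a few counts of each other.

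The next gamma members in both lines at 0 h, per kb of own exon, were PCDHGB2 and PCDHGA12, the latter known as a gene methylated in lung cancer. PCDHGB2 stood at 1.59 ± 0.193 CPM per kb in EW8 and 0.510 ± 0.172 in TC71. PCDHGA12 stood at 1.47 ± 0.101 and 0.325 ± 0.0962. Within each line the ranges of mean ± SD of the pair overlapped. In TC71 PCDHGA7 (0.311 ± 0.0367) lay within the spread of PCDHGA12. The lowest gamma member in EW8 was PCDHGB7, with 1, 0 and 0 counts at 0 h and 0 in every library of 48 h, although TC71 had 3, 7 and 12 counts before and 13, 8 and 17 after withdrawal.

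In the alpha cluster, per kb of own exon at 0 h, PCDHAC1 led in EW8 and PCDHA2 in TC71. This order depends on the scaling by length, since the own exon has 10557 bases in PCDHA4 and 2626 in PCDHA2. In CPM without that scaling, PCDHA3 had the highest mean in TC71 at 0 h (2.85, against 2.55 for PCDHA2). In EW8 at 0 h PCDHA4 (3.01 CPM) stood above PCDHAC2 (2.33) and PCDHA2 (1.99). PCDHAC1 had 159, 106 and 187 counts in EW8 at 0 h, 95, 112 and 105 at 48 h, 52, 47 and 45 in TC71 at 0 h, and 39, 60 and 78 at 48 h. Its level was 1.51 ± 0.156 CPM per kb in EW8 and 0.490 ± 0.0571 in TC71 at 0 h. PCDHA2 had 52, 34 and 57 counts in EW8 at 0 h, 37, 32 and 23 at 48 h, 79, 50 and 55 in TC71 at 0 h, and 65, 71 and 95 at 48 h. The order at 0 h was PCDHAC1, PCDHA6 (1.07 ± 0.104), PCDHA2 (0.757 ± 0.103) and PCDHAC2 (0.708 ± 0.0934) in EW8, of which the last pair lay within their SDs. It was PCDHA2 (0.973 ± 0.132), PCDHA6 (0.713 ± 0.143) and PCDHA3 (0.707 ± 0.0806) in TC71, and the mean ± SD of each of these overlapped with that of its neighbour in the order.

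PCDHA6 had 89, 58 and 108 counts in EW8 at 0 h, 51, 50 and 55 at 48 h, 77, 41 and 51 in TC71 at 0 h, and 41, 53 and 64 at 48 h. PCDHA3 had 42, 36 and 55, then 31, 28 and 41 in EW8, and 72, 54 and 78, then 74, 81 and 93 in TC71. PCDHAC2, which serotonergic axons use for spacing in the mouse, had 50, 37 and 88, then 34, 42 and 39 counts in EW8, and 42, 36 and 34, then 33, 48 and 43 in TC71. The alpha members PCDHA8, PCDHA9, PCDHA10 and PCDHA13 never exceeded 7 counts in a library.

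The beta cluster was led by different members in the lines at 0 h. In EW8 the order was PCDHB5 (2.97 ± 0.152 CPM per kb), PCDHB11 (1.10 ± 0.147) and PCDHB14 (0.574 ± 0.0379), steps larger than the SDs. PCDHB8 followed at 0.531 ± 0.116, which overlaps PCDHB14, so the order of that pair was not resolved. In TC71 it was PCDHB2 (1.40 ± 0.163), PCDHB5 (0.872 ± 0.136) and PCDHB11 (0.473 ± 0.0419). PCDHB2 was only in place 21 of the 42 members in EW8, at 0.176 ± 0.0558.

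**Figure D2:**
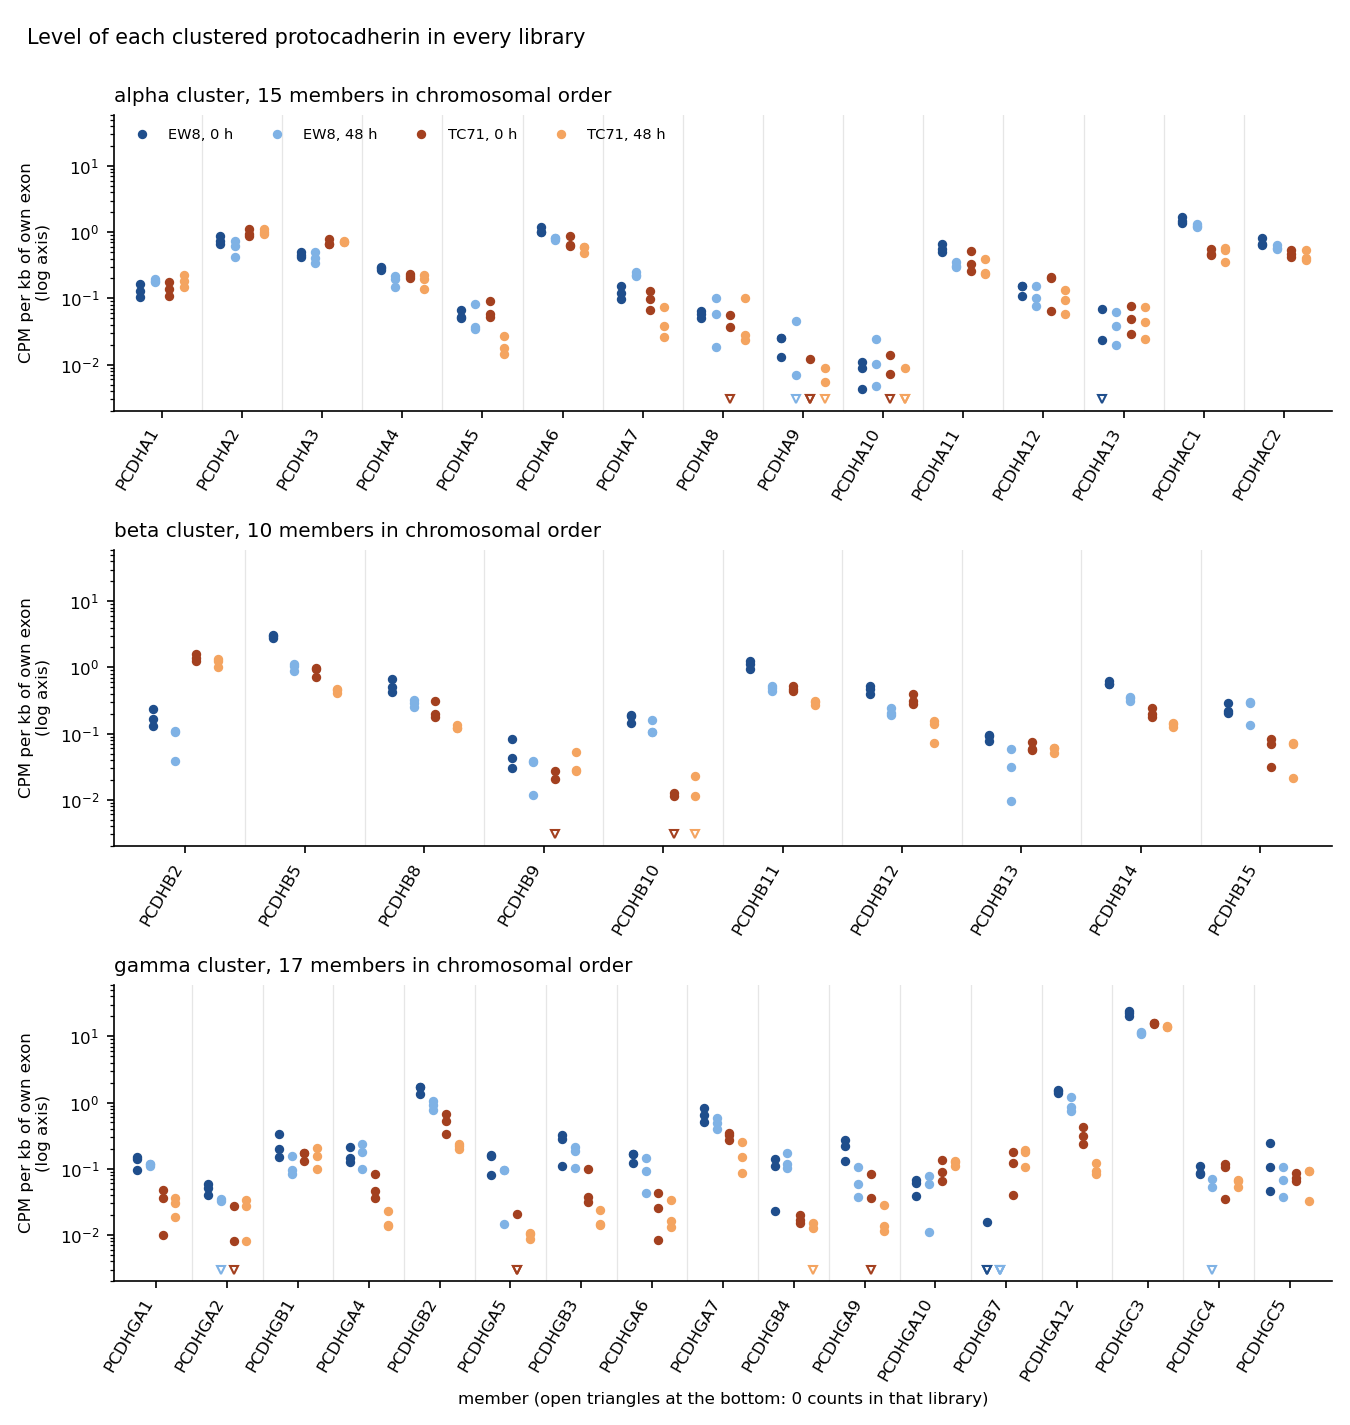
Level of each of the 42 members in each of the 12 libraries, in CPM per kb of own exon on a log axis, by cluster and in chromosomal order, with 0 counts drawn as open triangles at the bottom. PCDHGC3 stands between 10.8 and 23.9 in every library, while no other member exceeds 5 in any.

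The comparison of TC71 with EW8 at 0 h asks which members the lines express differently while the transgene is on. With edgeR's quasi-likelihood test, a gene was called with a Benjamini-Hochberg adjusted p below 0.05 over all genes tested and a fold above 2. Of the 28 members tested, 14 were called lower in TC71, where 4.77% of all genes tested were, and 2 were called higher, against 11.9% of all genes. The median log2 fold change of the 28 was -0.83, against 0.0094 over all genes. By the adjusted p alone 20 were lower (32.8% of all genes) and 3 higher (32.9%), and the libraries of the lines did not overlap for 19 that were lower (34.0%) and 3 that were higher (34.3%). The members called lower were 1 of 9 alpha, 6 of 8 beta and 7 of 11 gamma genes. The filter on low counts bears on this count, since PCDHB10, PCDHB15, PCDHGA1, PCDHGA4, PCDHGA6 and PCDHGB3, with at most 7 counts in any TC71 library of 0 h, were tested for their counts in EW8, and PCDHGB7 for those in TC71. Under a stricter filter, a minimum of 10 counts in each of the 12 libraries, 12 members were tested, of which 5 were called lower and 0 higher. The markers of other cells in the table were PTPRC, ALB and EPCAM. EPCAM, an epithelial marker, was higher in TC71 (14, 23 and 28 counts) than in EW8 (3, 2 and 6), PTPRC had at most 5 and ALB at most 6 counts in any library, and the part of such cells in the difference was not tested.

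Among the beta genes, PCDHB2 went against the others. It had 153, 131 and 123 counts in TC71 and 12, 17 and 22 in EW8, and was higher in TC71 by 3.02 on the log2 scale (SE 0.20, adjusted p 3.72e-15, edgeR). PCDHB5 had 86, 67 and 59 counts in TC71 and 243, 177 and 315 in EW8, a log2 difference of -1.76 (SE 0.12, adjusted p 1.26e-14, edgeR). The libraries of the lines did not overlap for either gene. PCDHB15 had 3, 6 and 6 counts against 18, 18 and 24 (log2 -1.95, SE 0.42). PCDHB10 had 1, 0 and 1 counts in TC71 and 11, 11 and 20 in EW8. With 2 counts in all in TC71, its ratio of EW8 to TC71 was 20.5, with an exact 95% interval for counting error from 5.34 to 175. The other beta members called lower in TC71 were PCDHB14 (-1.46), PCDHB8 (-1.26) and PCDHB11 (-1.20). PCDHB12 was lower by the adjusted p alone, by 0.50 on the log2 scale (-0.50, SE 0.22, adjusted p 0.0482, edgeR).

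Among the gamma genes tested, those called lower in TC71 with over 3 counts in some library of each line included PCDHGA6, PCDHGA12, PCDHGB3 and PCDHGA1, of which all but PCDHGA12 entered the test only through EW8, where they are higher. PCDHGA6 had 4, 1 and 6 counts in TC71 and 22, 17 and 23 in EW8 (log2 -2.43, SE 0.45). PCDHGA12 had 23, 13 and 28 against 85, 70 and 140 (log2 -2.16, SE 0.20, adjusted p 1.98e-11, edgeR). PCDHGB3 had 7, 2 and 2 against 19, 5 and 24 counts (log2 -2.05, SE 0.47), and without replicate 1 of TC71 0 h it was at -2.79. PCDHGA1 had 4, 4 and 1 against 14, 10 and 13 (log2 -1.97, SE 0.48). In CPM each of these was lower in every TC71 library than in every EW8 library. PCDHGB2, PCDHGA4 and PCDHGA7 were called lower at -1.62, -1.48 and -1.06. The call of PCDHGA7 was lost without replicate 2 of EW8 0 h (-0.92) or replicate 2 of TC71 0 h (-0.97), and with scaling by total counts alone (-0.92), which moved the median of all genes to 0.14. PCDHGC3 differed by less, at 51.2 ± 1.68 against 72.2 ± 5.97 CPM (log2 -0.49, SE 0.054, adjusted p 1.03e-09, edgeR), which is under the fold threshold. PCDHGB7 was called higher in TC71, with 22 counts against 1 over the 3 libraries, a ratio of 22.5 with an exact 95% interval from 3.64 to 929. The only EW8 count was in replicate 1.

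Of the 9 alpha genes tested, PCDHAC1 was the only one called (log2 -1.62, SE 0.15, adjusted p 2.20e-11, edgeR). PCDHA3 was higher in TC71 by the adjusted p alone (log2 0.64, SE 0.17, adjusted p 0.00119, edgeR), and PCDHAC2, PCDHA11, PCDHA6 and PCDHA4 were lower, by -0.60 to -0.40. PCDHA2 was at 0.39 (SE 0.18, adjusted p 0.0600), PCDHA7 at -0.37 (SE 0.42, adjusted p 0.444) and PCDHA1 at 0.036 (SE 0.38, adjusted p 0.946) by edgeR, and none of these passed the test.

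**Figure D3:**
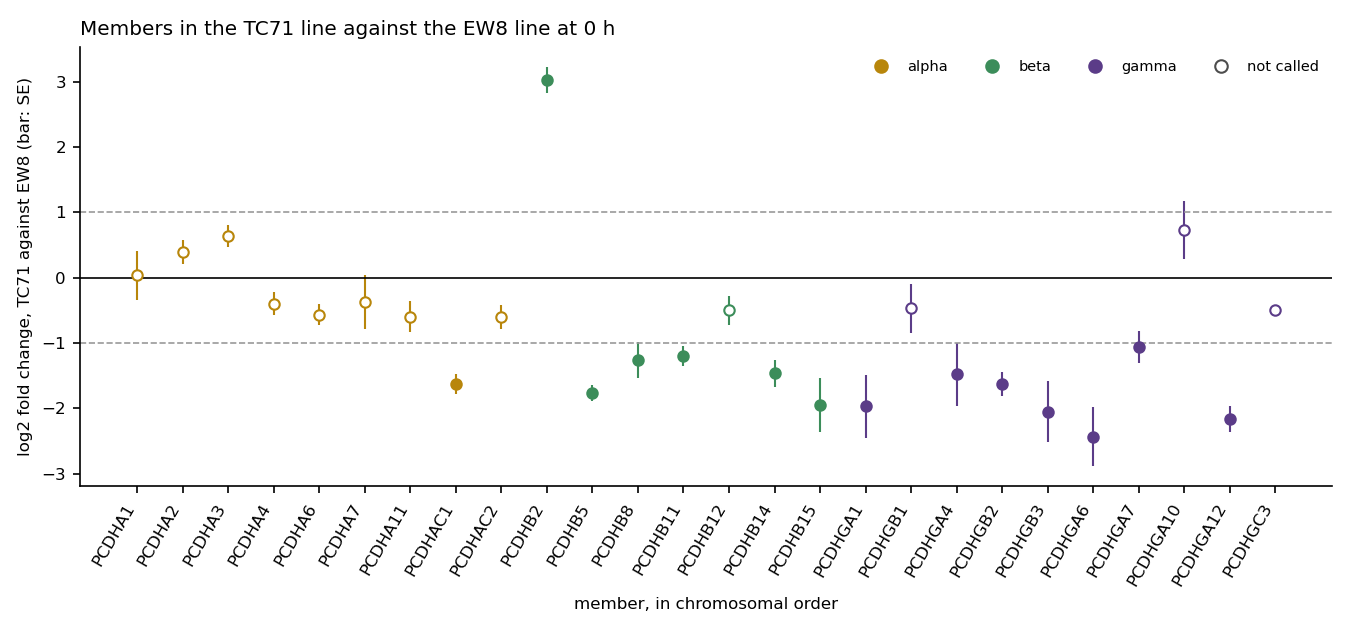
Log2 fold change of TC71 against EW8 at 0 h for 26 tested members in chromosomal order, with standard errors, filled where called, and dashed lines at a fold of 2. PCDHB2 at 3.02 stands alone above the upper line, and 13 members of the 26 are called below the lower line. PCDHB10 and PCDHGB7, with 1 or 2 counts in all in a line, are not drawn.

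After doxycycline withdrawal the log2 fold change in EW8 was negative for 24 of the 28 members tested, against 48.1% of all genes. Of the 28, 3 were called lower in EW8 at 48 h, against 3.35% of all genes, and 0 were called higher, against 13.9%. By edgeR's adjusted p alone 13 members fell, where 31.6% of all genes did, and 1 rose, where 37.0% did. At an unadjusted p below 0.05 edgeR had 13 lower (32.6% of all genes) and 1 higher (38.0%), and DESeq2 also called 0 higher. The libraries of 48 h lay below those of 0 h with no overlap for 14 members (33.2% of all genes) and above them for 2 (37.9%). The median log2 fold change of the 28 was -0.58, against 0.031 over all genes. It was -0.29 for the 9 alpha, -0.93 for the 8 beta and -0.66 for the 11 gamma members. The number called lower changed with the settings. It was 5 with the Wald test of DESeq2, which also took in the 14 members left out by the filter. It was 5 to 7 when any of the 6 EW8 libraries was left out. With scaling by total counts alone the call of PCDHB12 was lost. The EW8 libraries of 0 h serve both this comparison and the preceding one, so a high value there would enter both. EPCAM had 3, 2 and 6 counts in EW8 at 0 h and 3, 8 and 9 at 48 h. Its log2 fold change of 1.14 did not pass edgeR's adjusted p, and its part in these values was not tested.

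The beta genes carried the called changes in EW8. PCDHB5 went from 243, 177 and 315 counts to 67, 77 and 61, or from 10.1 ± 0.517 to 3.47 ± 0.444 CPM (log2 -1.54, SE 0.12, adjusted p 4.38e-13, edgeR). PCDHB11 went from 90, 90 and 154 to 34, 41 and 44 counts, or from 4.60 ± 0.613 to 2.004 ± 0.178 CPM (log2 -1.18, SE 0.16, adjusted p 4.36e-08, edgeR). PCDHB12 went from 42, 35 and 51 to 18, 16 and 15 counts (log2 -1.09, SE 0.25, adjusted p 0.000287, edgeR). In each, every 48 h library was below every 0 h library, although with scaling by total counts alone, which moved the median of all genes from 0.031 to 0.16, PCDHB12 was at -0.96 and no longer called. PCDHB2 (-0.97), PCDHB8 (-0.89) and PCDHB14 (-0.76) also fell by the adjusted p. PCDHB14 went from 60, 41 and 77 to 29, 29 and 27 counts. PCDHB10 (-0.50, adjusted p 0.256) and PCDHB15 (0.063, adjusted p 0.873) did not pass edgeR's test.

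PCDHGC3 had the smallest adjusted p of the members in EW8. It went from 65.9, 77.8 and 72.8 CPM to 37.5, 35.1 and 35.9 CPM, and fell by 0.99 on the log2 scale (SE 0.057, adjusted p 6.27e-17, edgeR), a fold of 1.99 that is just under the threshold of 2. It passed the threshold under 5 other settings of the analysis, among them DESeq2 (-1.005), and without replicate 1 of 0 h (-1.09), replicate 3 of 0 h (-1.02) or replicate 1 of 48 h (-1.02). The other gamma members that fell by the adjusted p were PCDHGB1 (-0.96, SE 0.42), PCDHGB2 (-0.82, SE 0.17) and PCDHGA12 (-0.67, SE 0.17). PCDHGB2 went from 102, 63 and 148 to 45, 41 and 57 counts. PCDHGA12 went from 85, 70 and 140 to 61, 40 and 48. PCDHGA1 (-0.10), PCDHGA4 (0.11), PCDHGA6 (-0.66), PCDHGA7 (-0.41), PCDHGA10 (-0.23) and PCDHGB3 (-0.56) did not pass.

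In EW8 3 alpha genes fell and 1 rose. PCDHA11 (-0.83, SE 0.25), PCDHA4 (-0.61, SE 0.19) and PCDHA6 (-0.41, SE 0.16) fell by the adjusted p. PCDHA7 rose by 0.82 on the log2 scale (SE 0.36, adjusted p 0.0447, edgeR), from 8, 5 and 15 to 12, 13 and 15 counts, and its CPM was higher in every 48 h library. Only in that group did each library of PCDHA7 have at least 10 counts, so it entered the test chiefly through the group where it is high. The C-type members PCDHAC1 (-0.24, SE 0.13, adjusted p 0.110) and PCDHAC2 (-0.29, SE 0.19, adjusted p 0.165) did not pass edgeR's test, although their CPM at 48 h lay below that at 0 h in every library. PCDHA2, PCDHA3 and PCDHA1 were at -0.34, -0.11 and 0.41 and did not pass.

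In TC71 the log2 fold change was negative for 21 of the 28 members at 48 h, against 50.2% of all genes. Of the 28, 3 were called lower, against 0.854% of all genes, and 0 were called higher, against 3.26%. By edgeR's adjusted p alone 7 fell (19.2% of all genes) and 0 rose (22.9%), and 12 members were lower with no overlap of libraries (23.7%), none higher (25.9%). At an unadjusted p below 0.05 edgeR had 11 lower (23.0%) and 0 higher (26.3%), and DESeq2 called 3 lower and 0 higher. EPCAM was also higher in TC71 at 48 h, by 0.67 on the log2 scale (38, 43 and 43 counts against 14, 23 and 28, adjusted p 0.0353, edgeR), and its part in these values was not tested. The median log2 fold change was -0.29, against -0.0013 over all genes, with -0.11 for the alpha, -0.64 for the beta and -0.38 for the gamma members. No alpha member passed edgeR's adjusted p, and PCDHA6 (-0.35, SE 0.17, adjusted p 0.105) was the only one of the 9 whose groups did not overlap.

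The members called in TC71 were PCDHGA12, PCDHB12 and PCDHGB2. PCDHGA12 went from 23, 13 and 28 to 6, 9 and 8 counts (log2 -1.71, SE 0.34, adjusted p 0.000121, edgeR). PCDHB12 went from 32, 31 and 26 to 14, 16 and 9 counts (log2 -1.44, SE 0.28, adjusted p 8.94e-05, edgeR). PCDHGB2 went from 48, 18 and 33 to 15, 17 and 17 counts (log2 -1.26, SE 0.26, adjusted p 0.000233, edgeR), and without replicate 1 of TC71 0 h it was at -0.98 and not called. In CPM the groups did not overlap for any of the 3. PCDHGA7 (-0.97), PCDHB5 (-0.97), PCDHB11 (-0.70) and PCDHGC3 (-0.17, SE 0.055, adjusted p 0.0137, edgeR) fell by the adjusted p alone. PCDHB5 had 86, 67 and 59, then 42, 37 and 50 counts, and PCDHB11 had 58, 37 and 47, then 34, 33 and 37. PCDHGC3 was at 52.2, 49.3 and 52.2 CPM at 0 h and 45.5, 44.4 and 46.8 at 48 h. PCDHB2, the leading beta member of this line, had 153, 131 and 123, then 107, 145 and 164 counts, and its change of -0.23 (SE 0.13, adjusted p 0.172, edgeR) did not pass.

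The members that fell in both lines by the adjusted p were PCDHB5, PCDHB11, PCDHB12, PCDHGA12, PCDHGB2 and PCDHGC3, which are 6 of the 13 that fell in EW8 and 6 of the 7 in TC71. Of the 28 members tested, 6 thus fell in both lines, where 14.3% of all genes tested did (2364 of 16515), and the overlap was not tested. No library is common to these comparisons.

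**Figure D4:**
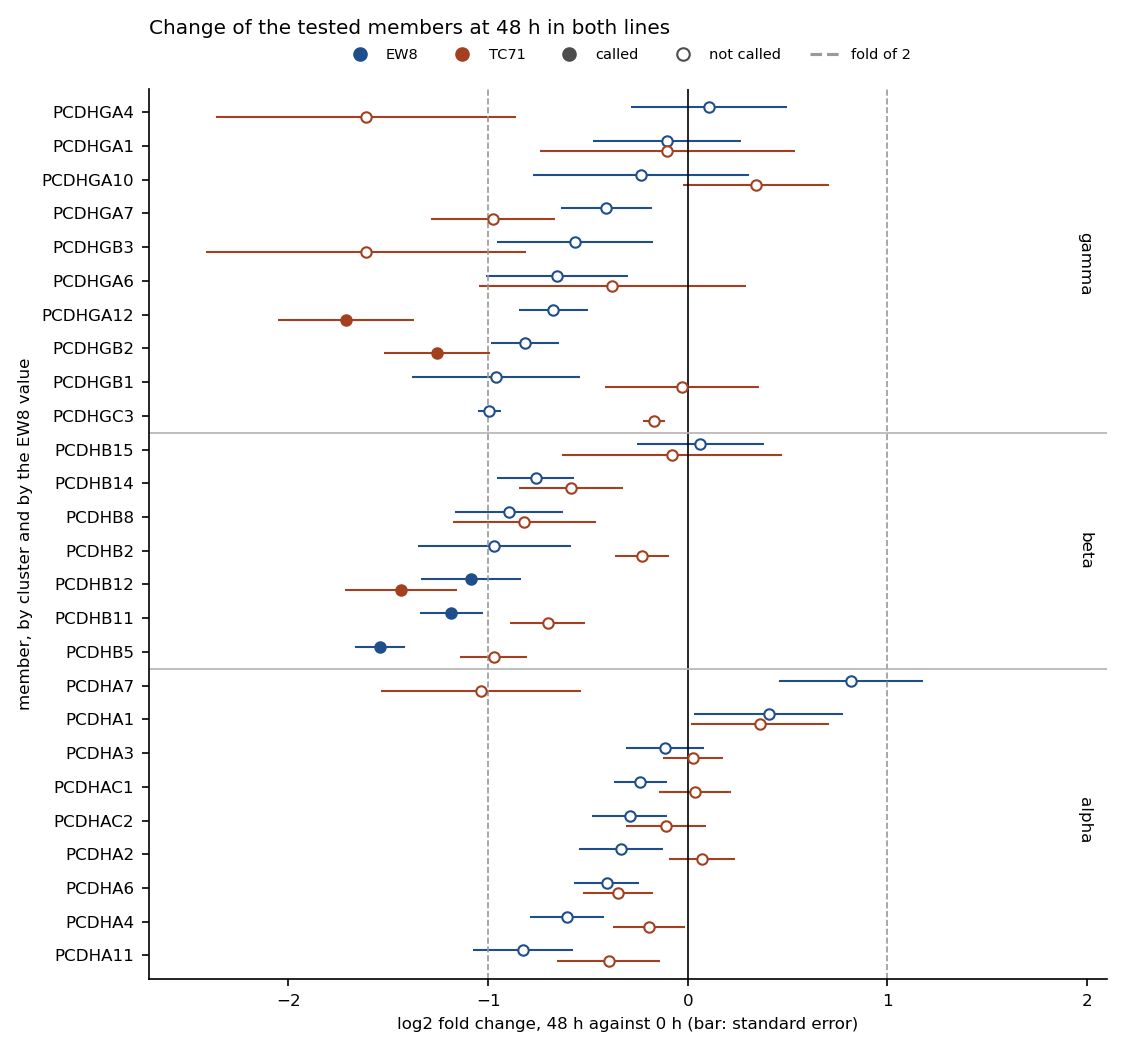
Log2 fold change at 48 h against 0 h in EW8 (blue) and TC71 (red) for 26 tested members, with standard errors, by cluster, filled where called, with dashed lines at a fold of 2. Called members lie in the beta cluster in EW8 and in the beta and gamma clusters in TC71, and the PCDHGC3 value in EW8 (-0.99) lies at the line while that in TC71 (-0.17) lies near 0. PCDHB10 and PCDHGB7, at the floor in a line, are not drawn.

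Whether a member's change differed between the lines was tested with the interaction of line and time in the same fit, which uses all 4 groups. Of the 28 members, 2 were called with the more positive change in EW8, against 7.28% of all genes, and 0 with the more negative change, against 0.981%. By edgeR's adjusted p alone there were 2 in each direction (25.7% and 22.4% of all genes), as at an unadjusted p below 0.05 (28.8% and 25.0%), and DESeq2 called 0 in either direction. The change of PCDHGC3 was more negative in EW8 by 0.82 on the log2 scale (-0.82, SE 0.080, adjusted p 2.11e-10, edgeR). That of PCDHB5 was more negative in EW8 by 0.57 (-0.57, SE 0.21, adjusted p 0.0279, edgeR). PCDHA7, which is at 0.82 in EW8 and -1.04 in TC71 (adjusted p 0.0947, with 10, 4 and 7, then 2, 3 and 7 counts), differed by 1.85 (SE 0.62, adjusted p 0.0129, edgeR), a call that rests on the same low counts. PCDHGA12, at -0.67 and -1.71, differed by 1.04 (SE 0.39, adjusted p 0.0268, edgeR). Both calls were lost with DESeq2 (adjusted p 0.0502 and 0.0538). That of PCDHA7 was also lost without replicate 1 of TC71 0 h (1.60, adjusted p 0.0688, edgeR). That of PCDHGA12 was lost without replicate 1 of EW8 0 h (0.97) or of EW8 48 h (0.83), replicate 3 of TC71 0 h (0.80), or replicate 1 (0.94) or 3 (0.96) of TC71 48 h. For PCDHB11 and PCDHB12, called in EW8, the differences were -0.48 (SE 0.25, adjusted p 0.112) and 0.35 (SE 0.39, adjusted p 0.479) by edgeR, so a difference between lines was not detected at this depth.

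The nonclustered protocadherins, which lie outside the clusters, have no constant exons and are expressed from single promoters, had other values in the same libraries. Of 10 tested, 6 were called higher in EW8 at 48 h (13.9% of all genes were) and 0 lower (3.35%), with a median log2 fold change of 1.27. PCDH8, an activity-regulated protocadherin of synapses, was at 6.04, 5.21 and 5.15 CPM at 0 h and 40.3, 37.5 and 42.7 at 48 h (log2 2.88, SE 0.089, adjusted p 1.76e-24, edgeR). PCDH12, known from endothelium, rose by 2.06 (SE 0.21), PCDH19, which is mutated in an X-linked epilepsy, by 1.503 (SE 0.11), and PCDH11X by 1.42 (SE 0.062). In TC71, 2 were called higher, PCDH8 (1.30, SE 0.080) and PCDH7 (1.01, SE 0.050), where 3.26% of all genes were, and 0 lower (0.854%), with a median of 0.21. By the adjusted p alone EW8 had 8 that were higher (37.0% of all genes were) and 0 that were lower (31.6%), and TC71 had 4 (22.9%) and 2 (19.2%). The 2 groups of genes were set side by side and not tested against each other.

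**Figure D5:**
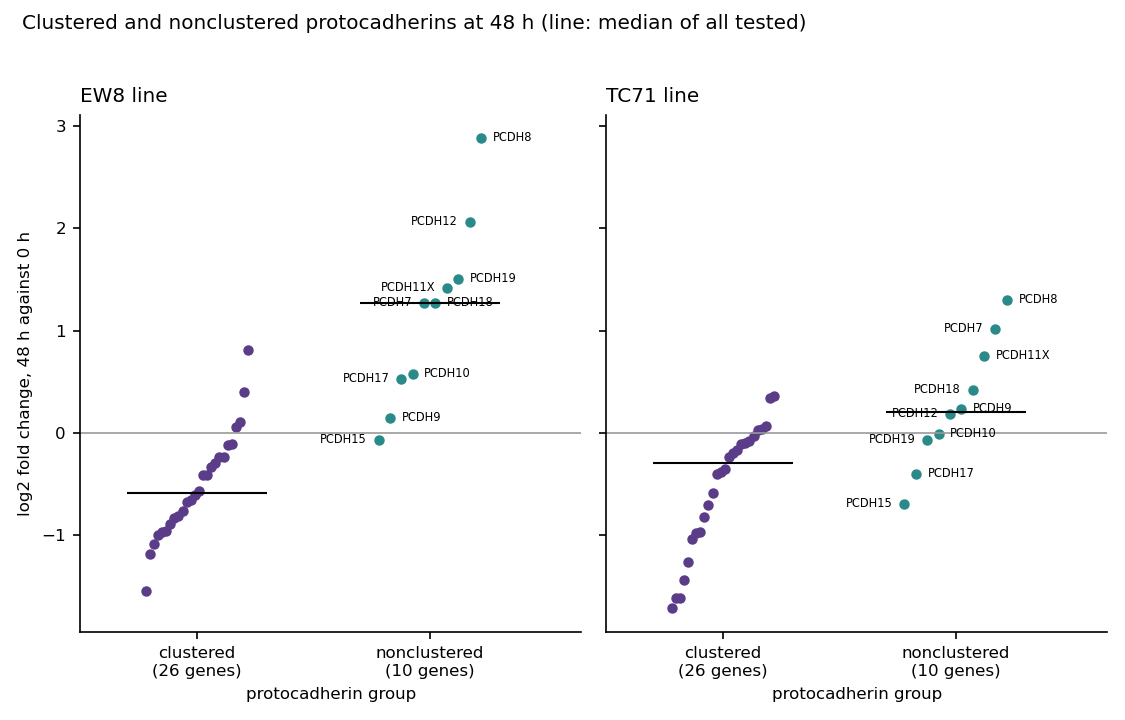
Log2 fold change at 48 h against 0 h in EW8 and TC71 for 26 clustered and 10 nonclustered protocadherins, each point a gene and each line the median of all tested (28 and 10). In EW8 the medians are -0.58 and 1.27, and in TC71 they are -0.29 and 0.21.

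Genes that bear on the clusters were taken from lists written by hand. Of 16 tested genes that neighbour the clusters on chromosome 5, 2 were called higher in EW8, where 13.9% of all genes were. They were ARAP3 (log2 3.95, SE 0.92) and RELL2 (1.36, SE 0.29), and 0 were called lower, against 3.35%. In TC71 ARAP3 alone was called (1.89, SE 0.39), where 3.26% of all genes were called higher and 0.854% lower. By edgeR's adjusted p alone EW8 had 7 higher (37.0% of all genes were) and 7 lower (31.6%), and TC71 had 2 (22.9%) and 1 (19.2%). Their medians were 0.053 and -0.021. Of 26 regulators of chromatin at the clusters, such as CTCF, cohesin subunits and DNA and histone methyltransferases, 1 was called, in EW8. Of all genes 13.9% were called higher and 3.35% lower in EW8, and 3.26% and 0.854% in TC71. The regulator called was ZNF274, a zinc-finger protein that recruits the histone methyltransferase SETDB1 (log2 1.70, SE 0.056, adjusted p 7.81e-24, edgeR). By the adjusted p alone EW8 had 10 that were higher (37.0% of all genes were) and 12 that were lower (31.6%), and TC71 had 5 (22.9%) and 6 (19.2%). Of 18 intracellular partners of the protocadherins, 0 were called in either line, beside the same shares of all genes. By edgeR's adjusted p alone EW8 had 5 that were higher (37.0% of all genes were) and 10 that were lower (31.6%). TC71 had 2 (22.9%) and 7 (19.2%). Of 9 classical cadherins, CDH10 (1.45, SE 0.065) and CDH20 (1.01, SE 0.31) were called higher in EW8, where 13.9% of all genes were, and 0 in TC71 (3.26%). By edgeR's adjusted p alone EW8 had 5 higher (37.0% of all genes were) and 1 lower (31.6%), and TC71 had 2 (22.9%) and 1 (19.2%).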

How the data were processed

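RNA was extracted by the authors on RNeasy Plus Mini columns. They prepared libraries with the TruSeq Stranded mRNA protocol, sequenced paired ends of 100 bases, and mapped reads to hg38 with STAR. The deposited values are raw counts per gene, not normalized, in 1 table of 12 libraries (the smallest sum of a gene over libraries was 21). The counter, its strand setting and the annotation were not given in the sources used here. Groups came from the sample titles.

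Tests used edgeR 4.0.16 (R 4.3.3) with filterByExpr for 4 groups at a minimum count of 10 and a minimum total of 15, TMM, and a robust quasi-likelihood fit of all 12 libraries (biological coefficient of variation 4.17%). Genes were called at a Benjamini-Hochberg adjusted p below 0.05 and a fold above 2. No replicate block was used, since same-numbered libraries of a line did not deviate together (r from -0.138 to -0.0147). No pair of replicates agreed within sampling noise (chi-square per gene 2.05 to 9.48). SEs were derived from the fitted change and its F statistic. The procedure was tested on simulated data. Rows without a symbol (773) stayed in the fit. Intervals and floors cover counting error only, and exact intervals used scipy 1.17.1.

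Exon lengths came from GENCODE 44 and promoters from RefSeq. Amino acid sequences were not used here. The members and lists were chosen with earlier results of these data known. Named with values per library were the C-type members, the 3 highest members per cluster and line, and up to 6 called members per comparison and direction with over 3 counts in some library of each group. For the other lists, at most 4 called genes were named. PCDHB10, PCDHGB7 and other members were named as every member may be. One Y-linked gene was left out. The alternatives were other scalings, DESeq2 1.42.0, other filters, a replicate block, the 2 groups alone, no fold threshold, other length scalings and each library left out.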

Additional observations from a re-analysis of the deposited data

Results flagged for a closer look

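The interaction test of edgeR called 2 members for a difference between the lines in the change at 48 h. PCDHA7 differed by 1.85 on the log2 scale (EW8 minus TC71) and PCDHGA12 by 1.04. PCDHA7 had at most 15 counts in any library and reached 10 in every library only in EW8 at 48 h, so it entered the test chiefly through the group whose high value makes this difference positive, and its value is a description. PCDHGA12 had 6 to 9 counts in TC71 at 48 h. Under DESeq2 neither passed the adjusted p (0.0502 and 0.0538). Groups of 3 libraries are too small for a search for outlying libraries, and none was made.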

How the results depend on the processing

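Depth limits these results: members made up 0.00742% to 0.0131% of counts, 14 of 42 were left out by the filter on low counts, and those at a few counts have wide errors. Alternative values of single members were made only for members that passed the adjusted p in the main fit. That choice makes a change of sign unlikely, and calls gained by other members are not counted here. Of these 615 values, 582 kept their direction and side of the thresholds, 13 lost a call, 20 gained one and none changed sign. Of 336 alternative counts and shares, 260 stayed within 1.5 times or 1 SD. With total counts alone the median of all genes moved to 0.16 (EW8), 0.12 (interaction) and 0.14 (lines at 0 h). In EW8 345 genes were then called lower, and PCDHB12 lost its call.

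Members called lower in EW8 were 5 by DESeq2, 6 with no filter and 13 with no fold threshold (1 higher), and 5 to 7 with a library left out (0 to 1 higher). In TC71 they were 1 with at least 10 counts in every library, 7 with no fold threshold and 2 to 4 with a library left out. The interaction called 0 higher by DESeq2 and with at least 10 counts in every library, 2 lower with no fold threshold, and 1 to 3 higher and 0 to 1 lower with a library left out. Between the lines at 0 h, at least 10 counts in every library gave 0 higher and 5 lower, the 2 groups alone gave 1 higher, and a library left out gave 14 to 16 lower. That filter tests 12 members. The cause of the other shifts was not tested. With no filter, PCDHB13 and PCDHGA9 (EW8), PCDHA5 (TC71) and PCDHGA2, PCDHGA5, PCDHGB4 and PCDHGA9 (lines at 0 h) were also lower by the adjusted p. Among all genes, at least 10 counts in every library gave 1204 higher and 306 lower in EW8, 197 and 36 in TC71, 634 and 98 in the interaction, and 979 and 389 between the lines, and no fold threshold gave 6103 and 5226, 3776 and 3179, 4243 and 3697, and 5439 and 5415.

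The replicate numbers do not pair the libraries, and with them as a block the members called were 3, 3, 2 and 16 as without it, among 2856, 663, 1329 and 2739 genes called (2848, 680, 1364 and 2751 without). With a library left out 21 to 25, 19 to 21, 17 to 18 and 15 to 17 members were expressed in EW8 at 0 h and 48 h and TC71 at 0 h and 48 h, and with at least 3 counts in each library 38, 29, 27 and 26. In the same order, per kb of all exon bases, the alpha share was 12.5%, 18.9%, 14.4% and 15.9%, the beta share 24.3%, 19.8%, 21.9% and 17.8%, and the PCDHGC3 share 51.3%, 47.4%, 57.1% and 61.2%. With no length scaling the alpha share was 17.0%, 24.4%, 18.9% and 20.5%, the beta share 17.3% (EW8 0 h), 16.0% and 13.0% (TC71), and the PCDHGC3 share 48.2% (EW8 48 h), 58.6% and 61.5% (TC71). With own exon bases taken over both strands and without PCDHA1 (41 members), a setting added after seeing the data, the beta share was 17.3% (EW8 0 h), 17.98% and 15.1% (TC71), the PCDHGC3 share 49.0% (EW8 48 h), 57.7% and 61.0% (TC71), and the alpha share 18.5% (TC71 48 h).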
